A study of Mus musculus with 4 samples.

Results

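The regions described here are the SOX3 ChIP-seq peaks that lie on genes of small non-coding RNAs in mouse neural progenitor (NP) cells. Peaks of 3 replicates that overlapped were merged into 51271 regions, and a merged region was taken when it shared at least 1 bp with a gene annotated as snRNA, snoRNA, miRNA, rRNA or misc_RNA (other small RNA) in GENCODE vM1 on mm9. This gave 125 regions on 125 of the 5371 annotated genes of these 5 types (2.33%, 95% Wilson confidence interval 1.96 to 2.77). Windows of the same length placed 10000 bp before and after each gene were overlapped in 1.15% of cases (123 of 10741).

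The NP cells came from R1, a mouse embryonic stem cell line, after 4 days as a monolayer in N2B27, a serum-free medium that directs such cells to neural fate. SOX3, a transcription factor of the SOXB1 group that is expressed in most neural progenitors, was immunoprecipitated from 3 independent samples with an antibody raised against human SOX3 (R&D AF2569), and all 3 samples had the same genotype and treatment. Input chromatin without antibody served the authors as the background for peak calling and was not analysed here, and the design holds no other group. Replicate 1 had 18816 peaks, replicate 2 had 8096 and replicate 3 had 40543, each with a score of 10 times the negative log10 of its MACS p-value and a lowest score of 50. Since such scores depend on a depth that the lists do not give, a peak is described below by its percentile within its own list, 100 being the highest score. Replicates 2 and 3 stand apart as a pair: 29.5% of their overlapping peaks on small RNA genes began at the same base (23 of 78 pairs), against 1.32% for replicates 1 and 2 and 1.08% for replicates 1 and 3, and over all regions the share for replicates 2 and 3 was 34.5%.

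Small nuclear RNAs are the RNA core of the spliceosome and of related particles. U1, U2, U4, U5 and U6 remove most introns, U11, U12, U4atac and U6atac remove a rare class of introns, and U7 trims the ends of replication-dependent histone messenger RNAs. Box C/D and H/ACA snoRNAs guide chemical changes of ribosomal RNA, and U3, U8 and U13 act in the maturation of the ribosomal RNA precursor. The genes of U1, U2, U4, U5, U7, U11, U12, U4atac, U3, U8 and U13 have their own promoters and are read by RNA polymerase II, whereas U6, U6atac, 7SK, 7SL, Y, vault, RNase P, RNase MRP and 5S RNA are made by RNA polymerase III. The promoters of many of these genes share a distal sequence element that often holds an octamer bound by POU domain proteins such as OCT1, while SOX proteins bind variants of the word AACAAA or AACAAT. Most other snoRNAs and many miRNAs are cut from the introns or transcripts of host genes. Mammalian genomes hold many copies of snRNA genes, of which a large share are defective pseudogenes.

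The upstream sequences of 7 covered genes, each with an octamer match, are shown so that its position can be read. No uncovered gene is shown. Of the 61 covered polymerase II genes, 15 had no octamer with at most 1 mismatch between 250 and 200 bases before the start. The covered U6 gene had none there either. Each runs 5′ to 3′ on the strand of the gene, from 250 bases before the first base of the RNA to 50 bases after it, on mm9. Capitals mark the octamer ATGCAAAT on either strand (ATTTGCAT on the other), or, in windows without an exact match, the match with 1 mismatch between 250 and 200 bases before the start.
U1: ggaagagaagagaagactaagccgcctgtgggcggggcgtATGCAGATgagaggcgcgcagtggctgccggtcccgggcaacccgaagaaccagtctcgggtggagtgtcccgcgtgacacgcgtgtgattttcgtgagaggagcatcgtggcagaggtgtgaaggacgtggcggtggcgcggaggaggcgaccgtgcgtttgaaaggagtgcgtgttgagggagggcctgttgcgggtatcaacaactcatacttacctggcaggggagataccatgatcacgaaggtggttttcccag
U2: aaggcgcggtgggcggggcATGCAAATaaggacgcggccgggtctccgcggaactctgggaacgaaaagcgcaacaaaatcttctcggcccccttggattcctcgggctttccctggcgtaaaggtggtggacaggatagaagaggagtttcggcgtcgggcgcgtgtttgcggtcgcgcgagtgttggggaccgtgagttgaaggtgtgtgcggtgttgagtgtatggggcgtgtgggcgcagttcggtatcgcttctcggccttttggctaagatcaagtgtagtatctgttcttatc
U3: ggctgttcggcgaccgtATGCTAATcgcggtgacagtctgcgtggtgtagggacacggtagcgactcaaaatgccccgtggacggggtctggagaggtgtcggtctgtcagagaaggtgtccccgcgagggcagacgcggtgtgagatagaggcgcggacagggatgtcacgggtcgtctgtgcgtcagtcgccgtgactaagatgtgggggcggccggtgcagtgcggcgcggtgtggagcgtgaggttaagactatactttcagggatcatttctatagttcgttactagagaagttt
U7: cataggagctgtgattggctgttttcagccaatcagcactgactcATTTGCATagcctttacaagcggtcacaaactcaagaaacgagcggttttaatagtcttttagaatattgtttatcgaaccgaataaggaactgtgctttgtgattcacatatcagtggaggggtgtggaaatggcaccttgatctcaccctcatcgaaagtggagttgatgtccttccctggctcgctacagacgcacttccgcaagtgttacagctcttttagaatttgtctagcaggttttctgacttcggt
U4atac: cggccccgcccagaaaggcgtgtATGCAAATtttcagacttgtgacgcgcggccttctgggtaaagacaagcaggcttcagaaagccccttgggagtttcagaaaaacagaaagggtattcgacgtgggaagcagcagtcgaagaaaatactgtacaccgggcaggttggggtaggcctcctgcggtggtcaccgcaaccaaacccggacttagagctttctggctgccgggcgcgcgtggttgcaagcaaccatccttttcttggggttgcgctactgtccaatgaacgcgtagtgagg
U8: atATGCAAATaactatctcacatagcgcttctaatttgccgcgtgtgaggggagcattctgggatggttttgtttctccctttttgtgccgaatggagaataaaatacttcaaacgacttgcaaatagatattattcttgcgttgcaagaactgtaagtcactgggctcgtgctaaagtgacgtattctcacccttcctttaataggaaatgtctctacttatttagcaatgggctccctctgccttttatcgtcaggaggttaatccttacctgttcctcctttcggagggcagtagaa
7SK: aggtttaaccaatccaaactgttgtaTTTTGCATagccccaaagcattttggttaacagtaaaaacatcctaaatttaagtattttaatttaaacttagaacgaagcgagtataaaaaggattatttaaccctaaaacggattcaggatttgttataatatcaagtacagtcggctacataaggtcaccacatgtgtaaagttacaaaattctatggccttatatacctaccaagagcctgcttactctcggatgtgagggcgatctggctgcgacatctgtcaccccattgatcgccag
An exact octamer stands in the windows of U2, U7, U4atac and U8, and those of U1, U3 and 7SK hold a match with 1 mismatch at a similar distance. The U1 gene is Gm22634, and its window is chr12:55811045-55811344 on the plus strand. The U2 gene is Gm24950, and its window is chr11:101502812-101503111 on the plus strand. The U3 gene is Rnu3b1, and its window is chr11:87256489-87256788 on the plus strand. The U7 gene is Rnu7, and its window is chr6:124691255-124691554 on the minus strand. The window of the only annotated U4atac gene, ENSMUSG00000080542, is chr1:120355793-120356092 on the minus strand. The U8 gene is Snord118, and its window is chr11:68886679-68886978 on the plus strand. The 7SK gene is Rn7sk, and its window is chr9:78023391-78023690 on the minus strand.

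Of the 5 gene types, the snRNAs had the largest share of genes under a region. Of 1423 snRNA genes, 51 were covered (3.58%, 2.74 to 4.68), against 1.09% of the windows 10000 bp away. The snoRNAs followed with 33 of 1552 (2.13%, 1.52 to 2.97), the miRNAs with 30 of 1577 (1.90%, 1.34 to 2.70) and misc_RNA with 9 of 487 (1.85%, 0.975 to 3.47). Only 2 of 332 rRNA genes were covered (0.602%, 0.165 to 2.17). The windows beside snoRNA, miRNA, misc_RNA and rRNA genes had shares of 1.39%, 1.05%, 1.13% and 0.753%, so that the interval of the share lay above the background for snRNAs, snoRNAs and miRNAs and included it for misc_RNA and rRNA, with the error of the background shares left aside. The snoRNA share fell to 0.838% and the miRNA share to 1.14% when only peaks with a score of 100 or more were used, and the snoRNA share to 1.35% when 50% of the gene had to lie in the region. The intervals cover counting error only, and copies of 1 family share their sequence and are not independent.

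The types also differed in how often all 3 replicates had a peak. Among all merged regions this share was 10.5%, and among regions on small RNA genes it was 54.4% (68 of 125, 45.7 to 62.9), with 20 further regions in 2 replicates and 37 in 1. The snRNA regions had a peak in every replicate in 46 of 51 cases (90.2%, 79.0 to 95.7), the miRNA regions in 11 of 30 (36.7%, 21.9 to 54.5), the snoRNA regions in 9 of 34 (26.5%, 14.6 to 43.1) and the misc_RNA regions in 2 of 9. Neither of the 2 rRNA regions had a peak in more than replicate 1.

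When genes were grouped by RNA family and polymerase, coverage was concentrated in the polymerase II families. Of their 519 genes, 61 were covered (11.8%, 9.26 to 14.8; windows beside them 1.25%). Of the 1666 polymerase III genes, 13 were covered (0.780%, 0.457 to 1.33), within counting error of the 0.870% beside them. The other genes, mostly other snoRNAs and miRNAs, stood at 51 of 3186 (1.60%, 1.22 to 2.10; windows beside them 1.27%). Of the 61 covered polymerase II genes 54 had a peak in every replicate, compared with 2 of the 13 polymerase III genes and 12 of the 51 others. Within the snRNA type, 49 of 441 polymerase II genes (11.1%) and 2 of 964 polymerase III genes (0.207%) were covered.

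**Figure D1:**
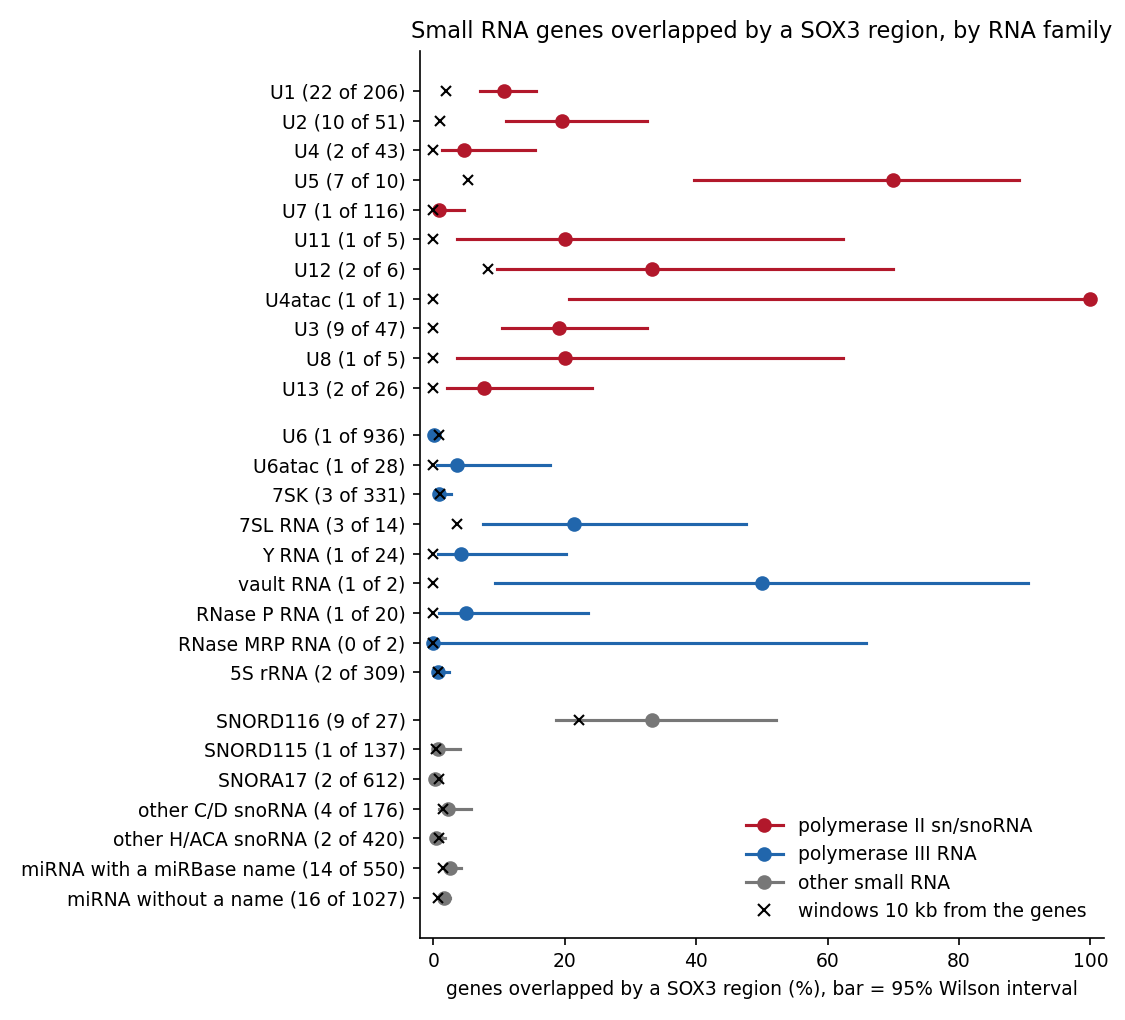
Percent of the annotated genes of each RNA family that a SOX3 region overlapped (points, with 95% Wilson intervals as bars), and the percent for windows of the same length 10000 bp away (crosses), with covered and annotated genes in parentheses. U5 (7 of 10 genes), U2 (19.6%), U3 (19.1%) and U1 (10.7%) lie well above their windows, and U6 (0.107%) lies below.

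U5 RNA, which holds the exons together during splicing, had the highest share of the families with 10 or more genes, 7 of 10 (interval 39.7 to 89.2%), all in every replicate. U2, which pairs with the branch point, was covered at 10 of 51 genes (19.6%, 11 to 32.5), all in every replicate. U1, which recognises the 5′ splice site, was covered at 22 of 206 (10.7%, 7.16 to 15.6), 20 of them in every replicate. U3 snoRNA was covered at 9 of 47 (19.1%, 10.4 to 32.5), 6 of them in every replicate, and none of the windows beside U3 genes was overlapped. Of the 43 annotated U4 genes, 2 were covered (4.65%), and of the 116 U7 genes 1 (0.862%), each in every replicate. The minor spliceosome had U11 at 1 of 5 genes, U12 at 2 of 6 and U4atac at its only gene. Of the ribosomal RNA processing snoRNAs, U8 was covered at 1 of 5 and U13 at 2 of 26. Another 3 covered genes are annotated as snRNA with no family name, and since their sequences were 98.4 to 99.5% identical to the most frequent U2 sequence, they are counted above as polymerase II genes. The other 18 unnamed snRNA genes, none covered, are in neither polymerase class, although 2 of them were 98.1% identical to a U6 gene and others less closely resembled U1, U2, U4, U6 or U7.

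By contrast, U6, the catalytic RNA of the spliceosome and the largest snRNA family, was covered at 1 of 936 genes (0.107%, 0.0189 to 0.603), whereas 0.908% of the windows beside U6 genes were overlapped. The 1 region was called in replicate 1 alone with a score of 50.3, the 0.489 percentile of its list. Of the 331 7SK genes 3 were covered (0.906%), of the 309 5S rRNA genes 2 (0.647%), of the 28 U6atac genes 1, of the 24 Y RNA genes 1, of the 20 RNase P genes 1 and of the 2 vault genes 1. Among polymerase III families of 10 or more genes, the largest share was that of 7SL, the RNA of the signal recognition particle, with 3 of 14 genes (21.4%, 7.57 to 47.6), 2 of them in every replicate.

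Peaks on polymerase II genes were also among the strongest of each list. Their median percentile was 98.8 in replicate 1, 99.5 in replicate 2 and 99.8 in replicate 3, while peaks on the remaining small RNA genes had medians of 64.2, 56.3 and 72.3. By type, the snRNA medians were 98.9, 99.5 and 99.8, those of miRNA 75.8, 65.8 and 87.1, and those of snoRNA 60.1, 99.2 and 78.4. In replicate 2 only 10 of the 34 snoRNA regions had a peak, and 8 of the 10 were on U3, U8 or U13. Median scores on polymerase II genes were 853, 985 and 1429, compared with 77.5, 82.5 and 63.6 over all merged regions. Over all regions in every replicate the median scores were 180, 108 and 189, and the median percentiles 82.6, 65.1 and 92.8. Regions on polymerase II genes were wide, with a median of 738 bp (range 108 to 1710), against 277 bp for the other members, 184 bp for all merged regions and 401 bp for all regions in every replicate.

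**Figure D2:**
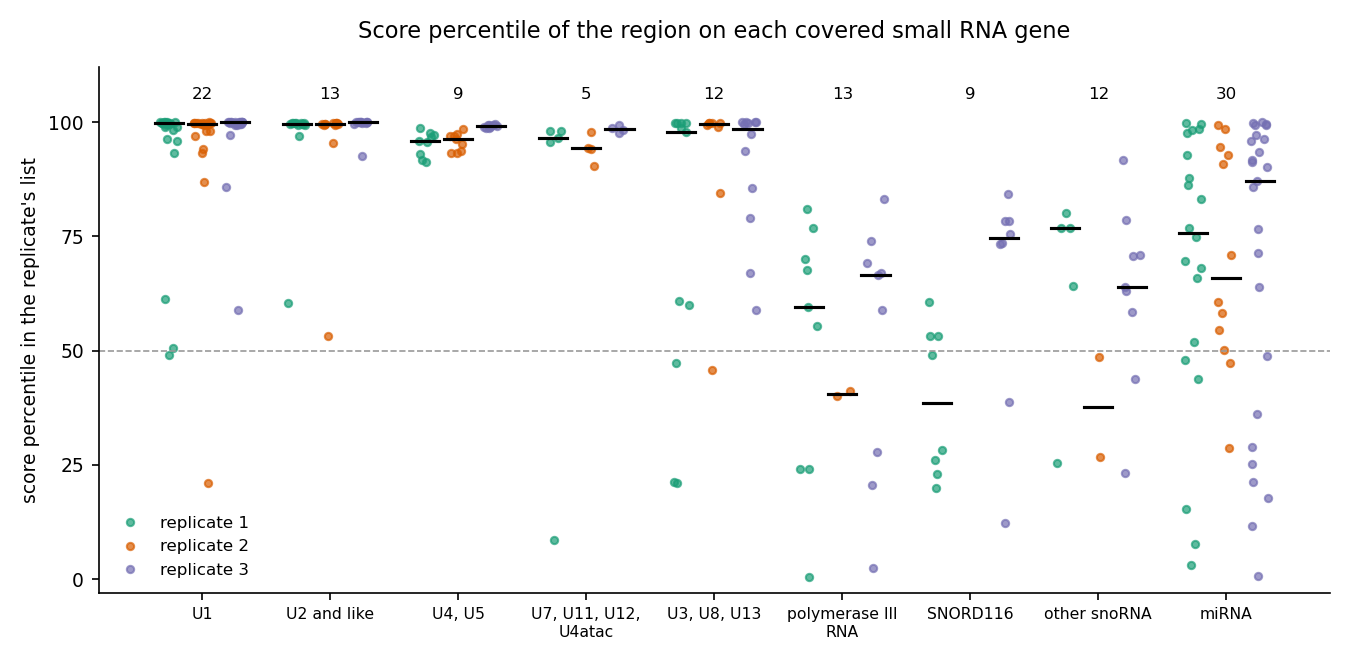
Percentile within the list of its replicate (y axis, 0 to 100) of the region on each covered gene, by group of RNA genes (x axis), with 1 point per gene and replicate, black bars at the medians, the number of covered genes above and a dashed line at 50. Peaks on polymerase II genes cluster near the top, with medians of 98.8, 99.5 and 99.8, and peaks on other genes spread over the whole range.

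At the top of the lists, small RNA genes took most places. When the 5358 regions with a peak in every replicate were ordered by their lowest percentile, 7 of the first 10, 17 of the first 20 and 27 of the first 50 lay on a small RNA gene, and all 27 were polymerase II genes. Further down, small RNA genes were on 30 of the first 100 regions, 46 of the first 500 and 55 of the first 1000. Of the peaks in the top 1% of each list, they held 30 of 188 in replicate 1, 30 of 81 in replicate 2 and 48 of 405 in replicate 3. The score 3100 recurs in the lists, held by 7, 1 and 27 peaks, of which 4, 0 and 24 lay on small RNA genes, so the order among these peaks cannot be read. It is the highest score of replicates 1 and 2, while the highest of replicate 3 is 3162. By width the picture differed, with none of the 100 widest regions and 9 of the 200 widest on a small RNA gene.

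**Figure D3:**
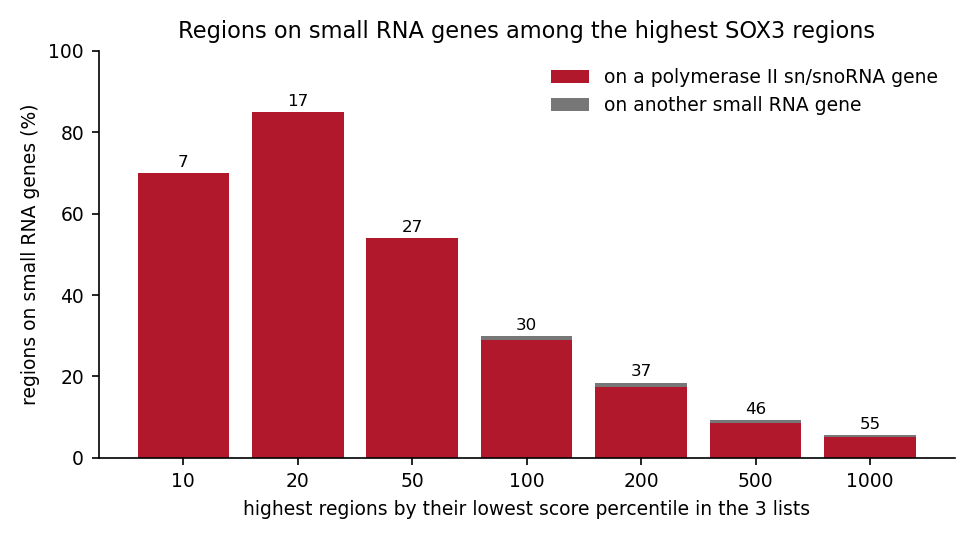
Percent of the highest regions that lie on small RNA genes (y axis, with their number above each bar), for increasing numbers of the regions with a peak in every replicate, taken by lowest percentile (x axis). Small RNA genes make up 17 of the first 20 and 55 of the first 1000.

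By lowest percentile, the first of the regions on small RNA genes lay on the U1 gene Gm22634 on chromosome 12, with scores of 3100, 2866 and 3100 in replicates 1, 2 and 3 (rank 2 in replicate 2, and tied at 3100 with other peaks in replicates 1 and 3). The U1 gene Rnu1b6 on chromosome 3 scored 3100, 2357 and 3100. The U2-like gene Gm25939 (AC120136.3) on chromosome 1 scored 3007, 2335 and 3100. All 3 genes were thus at or near the recurring 3100 in replicates 1 and 3. Rnu3b1, a U3 gene inside Tex14, scored 2792, 2193 and 3100, and the U2 gene Gm24950 on chromosome 11 scored 2566, 2119 and 3100. The covered genes of U8, U11, U7, U4atac and U12 scored lower. Snord118, the U8 gene, scored 658, 762 and 1295. Rnu11 scored 690, 567 and 892. Rnu7 scored 680, 358 and 673. These 3 genes lay between the 94.4 and the 99.7 percentile of their lists. The U4atac gene scored 443, 352 and 543, and Rnu12 scored 504, 260 and 405. Rnu12, in replicate 2, was the lowest of these at the 90.4 percentile.

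The U5 genes formed an even group, with scores between 288 and 803 in replicate 1, between 324 and 679 in replicate 2 and between 668 and 1219 in replicate 3. Rnu5g was highest in replicate 1 and Gm25099 in replicates 2 and 3. The U4 pair on chromosome 5, Gm24265 and Gm24407, scored 464 and 580 in replicate 1, 446 and 324 in replicate 2 and 660 and 736 in replicate 3, so that their order changed between replicates. Snord13, the U13 gene, varied most, with 56.4 in replicate 1, 189 in replicate 2 and 387 in replicate 3, or percentiles of 21.2, 84.5 and 97.4. Some polymerase II members were weaker. Of the 9 U3 genes, Gm24826, Gm24949 and a copy on chromosome 19 had no peak in replicate 2 and reached 47.4, 60.1 and 21.1 in replicate 1 and 59.0, 85.6 and 79.1 in replicate 3, and the copy at position 106586572 of chromosome 11 reached 60.9, 45.8 and 93.6. The U1 gene Gm24924 reached 61.4 in replicate 1 and 58.9 in replicate 3, and the snoU13 copy on chromosome 6 had a peak of replicate 1 at 39.2 and one of replicate 3 at 67.1. The U2 gene on chromosome X reached percentiles of 60.5, 53.1 and 92.5, the U1 gene Gm26244 on chromosome 18 reached 50.6, 21.0 and 85.9, and a U12 copy on chromosome 5 and a U1 copy at position 48519017 of chromosome 1 had a peak in replicate 1 alone.

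Many of the covered genes lay together. With a gap of at most 100000 bp, the 125 regions formed 84 loci, of which 12 held 2 or more regions and 53 regions in all. On chromosome 12, from 55797656 to 55840035, each of the 7 annotated small RNA genes is a U1 gene and each was covered in every replicate. On chromosome 3, from 96131909 to 96293224, 8 of 9 small RNA genes were covered, all U1 and in every replicate. The U2 cluster on chromosome 11, from 101465907 to 101520309, had 5 of 5 genes covered, and the cluster on chromosome 1, from 72272441 to 72302676, had the named U2 gene and its 3 unnamed relatives, 4 of 4. On chromosome 11 from 87235952 to 87285335, within Tex14, 6 of 7 genes were covered, of which 2 were U1 and 4 were U3. U5 genes were paired with each other on chromosome 9 and grouped as 3 on chromosome 4. Each of the regions on a U1, U2, U3 or U5 gene in these loci had a peak in every replicate.

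In U1 and U2, coverage followed the identity of the copy to the most frequent sequence of the family. Among U1 genes at least 95% identical to it, 19 of 23 were covered (82.6%, 62.9 to 93.0), against 3 of the other 183 (1.64%). Covered U1 genes had a median identity of 97.9% and uncovered ones 72.0%. Among U2 genes the split was complete, with 10 of 10 near-identical genes covered (72.2 to 100) and 0 of the other 41, where the upper bound is 8.57%. The U2 medians were 99.5% and 67.5%. For U6 the same split gave 0 of 181 near-identical genes, with an upper bound of 2.08%, and 1 of the other 755. Copies of exactly the most frequent sequence were covered in 7 of 7 cases for U1 (164 bp), 4 of 4 for U2 (191 bp), 2 of 2 for 7SL (297 bp) and 7 of 18 for SNORD116, and in 0 of 43 for U6 (107 bp), 0 of 33 for SNORD115 and 0 of 25 for 5S rRNA. In U3 the most frequent sequence is a short one of 90 bp, and 0 of its 12 copies were covered. SNORD116 genes had a median identity of 100% whether covered or not. No U5 sequence occurs more than once, so that U5 has no most frequent sequence and identity was not read for it.

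**Figure D4:**
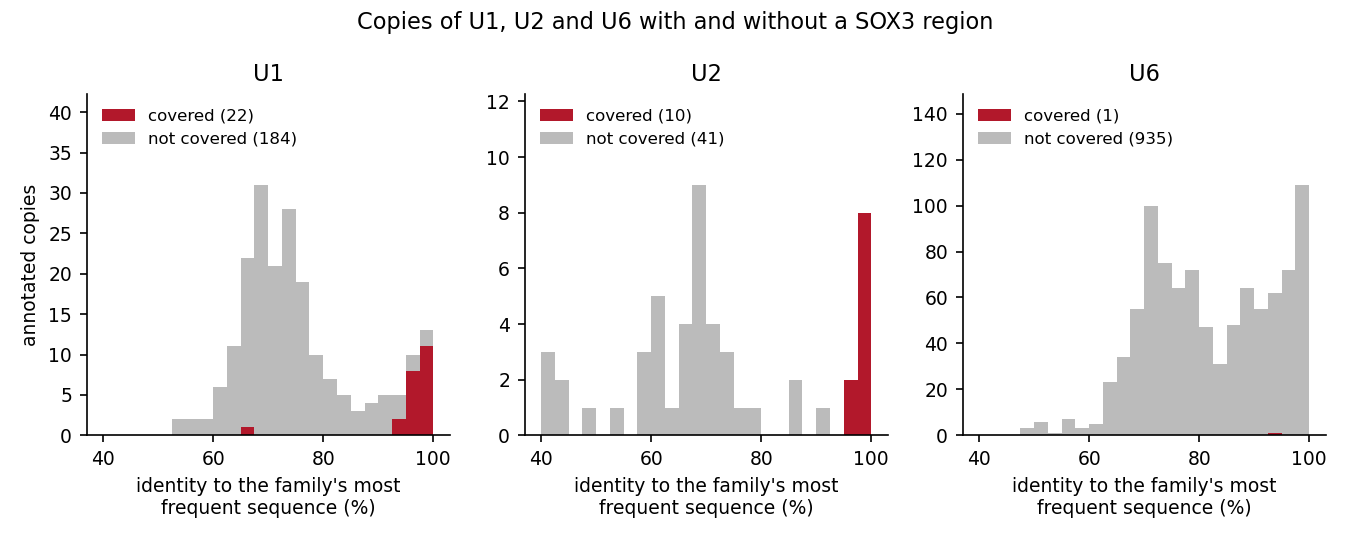
Number of annotated U1, U2 and U6 genes (y axis, stacked bars) by percent identity to the most frequent sequence of their family (x axis), with covered genes in red and uncovered genes in grey. Covered U1 and U2 genes lie at the right, with medians of 97.9% and 99.5%, whereas the 181 near-identical U6 genes are all uncovered.

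Reads from identical copies cannot be assigned to 1 gene by sequence, and how reads with several matches were handled is not given in the sources used here. A region was called mostly multi-copy when over 50% of its 50-base sequences are found more than once in the reference. This held for 34.4% of member regions, 18 of the 62 regions on polymerase II genes, 28.9% of all merged regions and 14.7% of all regions in every replicate. Within U1 it held for 14 of 22 regions, and within U2 for 2 of 10. Counting only regions that are not mostly multi-copy, while keeping every annotated gene in the denominator, 8 of 206 U1 genes (3.88%), 8 of 51 U2 genes (15.7%) and 43 of 519 polymerase II genes (8.29%) were covered, beside 7 of 1666 polymerase III genes (0.420%). Of the highest regions, that on Gm22634 had 93.2% of its 50-base sequences repeated, that on Rnu1b6 97.9% and that on Gm24950 67.3%. Other strong regions held little repeated sequence: 9.91% of the 50-base sequences of the region on Gm25939 were repeated, 12.4% of that on Rnu1a1, 0.174% of that on Rnu3a and none of that on Rnu7. Rnu3a scored 853, 994 and 1812, which places it above the 98 percentile of each list. The part of repeated sequence in the other regions was not tested.

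The octamer was searched on both strands in the 300 bp before each gene. An exact ATGCAAAT was present in 23 of the 61 covered polymerase II genes (37.7%, 26.6 to 50.3) and in 18 of the 458 uncovered ones (3.93%). Among 22380 protein-coding genes the same window held it in 1.83%. In the covered genes 22 of the 23 matches lay between 250 and 200 bp before the start, with a median of 227 bp, and in the uncovered genes 1 of 18 did. By family, 8 of 10 covered U2 genes, 4 of 7 U5 genes and 1 of 22 U1 genes had the exact word, and none of the 9 U3 genes did. With 1 mismatch allowed, the shares became 82.0% of covered and 43.2% of uncovered polymerase II genes, and 19.2% of protein-coding genes. U3 went the other way, with 5 of 9 covered genes (55.6%) and 28 of 38 uncovered ones (73.7%).

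Coverage was then read by whether an octamer with at most 1 mismatch stood between 250 and 200 bp before the start. This window held 22 of the 23 exact octamers of covered polymerase II genes. The split by it therefore describes the same genes and is no independent check. Of 79 polymerase II genes with such an octamer 46 were covered (58.2%, 47.2 to 68.5), and of 440 without it 15 (3.41%, 2.08 to 5.55). Polymerase III genes, some of whose promoters carry the same element, were covered in 2 of 135 cases with it (1.48%) and 11 of 1531 without it (0.718%). Among near-identical U1 genes all 15 with the element were covered, and 4 of the 8 without it. The 4 uncovered near-identical U1 genes all lacked it, and their nearest region was 6869 to 82632 bp away. Among near-identical U6 genes 0 of 18 with the element were covered, where the upper bound is 17.6%, and 0 of 163 without it. The element was present in 6 of the 7 covered U5 genes, 4 of the 9 covered U3 genes and both covered U4 genes, but in U4 and U7 most genes with it were uncovered, with 2 of 6 and 1 of 11 covered. Of the 27 U1 genes with the element 15 were near-identical copies, so that identity and octamer varied together, and their separate shares in the difference were not tested.

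The word AACAAA or AACAAT of SOX proteins was searched in the middle 200 bp and in whole regions. In the middle 200 bp of the regions, AACAAA or AACAAT on either strand was present in 25 of 125 regions on small RNA genes (interval 13.9 to 27.9%) and 13 of 62 on polymerase II genes (21.0%, 12.7 to 32.6), against 36.3% of all merged regions and 47.9% of regions in every replicate. The variant GACAAA or GACAAT was present in 22 of 62 regions on polymerase II genes (35.5%, 24.7 to 47.9), in 10 of the other 63 (15.9%) and in 25.6% of all 125, compared with 22.9% of all merged regions and 33.2% of those in every replicate. The octamer was in none of these 125 middle windows, where the upper bound is 2.98%, while 2.67% of all merged regions and 5.56% of those in every replicate had it. In whole regions, which are wider on polymerase II genes, AACAAA or AACAAT was present in 40 of the 62 on polymerase II genes (64.5%, 52.1 to 75.3) and 20 of the other 63 (31.7%), against 36.6% of all merged regions and 62.8% of those in every replicate. GACAAA or GACAAT was present in 41 of the 62 (66.1%, 53.7 to 76.7), against 24.3% and 48.5%, and the octamer in 11 (17.7%, 10.2 to 29), against 2.75% and 7.15%. In the 300 bp before the gene, AACAAA or AACAAT occurred in 15 of 61 covered (24.6%) and 229 of 458 uncovered polymerase II genes and in 29.8% of protein-coding genes. GACAAA or GACAAT occurred there in 19.7%, 27.7% and 20.5%.

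The peaks on covered genes were centred downstream of the gene starts. The rule of overlap with the gene favours this, since regions before the start that do not reach the gene are left out. Over the 54 polymerase II genes with a peak in every replicate, the median peak middle was 165 bp downstream of the start in replicate 1 (quartiles 99.8 and 234), 174 bp in replicate 2 (111 and 267) and 179 bp in replicate 3 (86.9 and 268). Middles before the start occurred at 2, 0 and 3 of the genes, and middles inside the gene at 27, 25 and 23. The region contained the whole gene in 49 of 54 cases and the whole 200 bp before it in 29. Only 10 of the 62 regions on polymerase II genes had their middle within 2000 bp of the start of a protein-coding gene (16.1%), near the 15.5% of all merged regions, and 42 were intergenic.

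**Figure D5:**
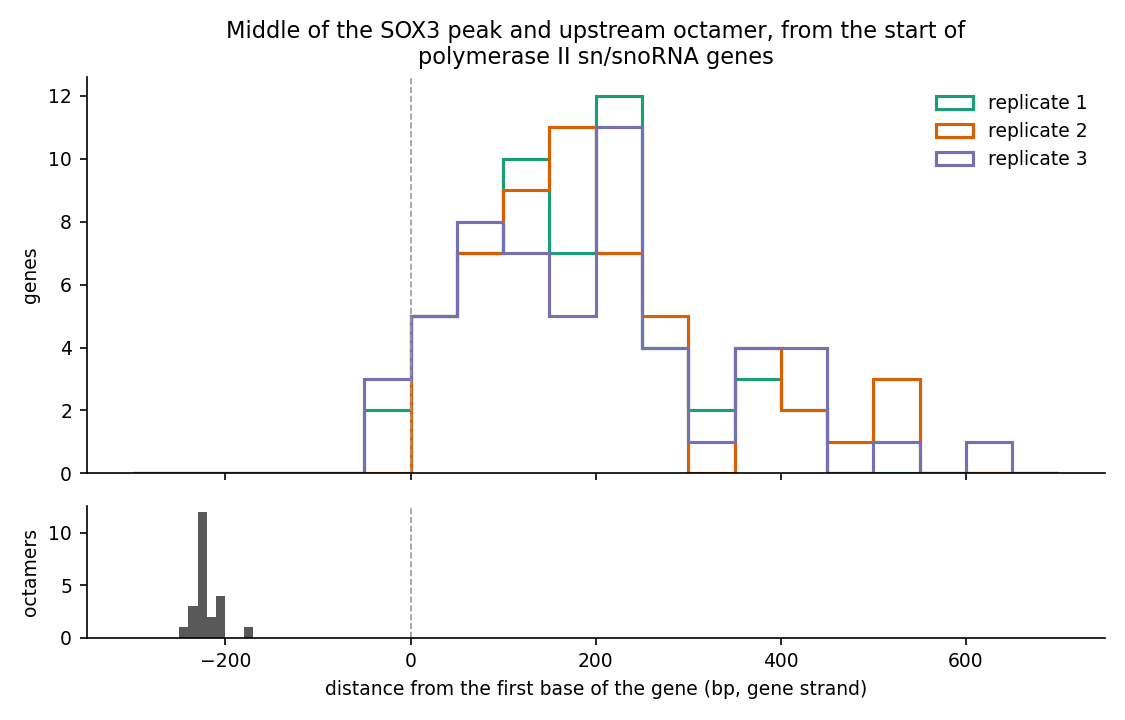
Distance in bp from the gene start (x axis, positive downstream) of the middle of each peak in the 3 replicates (upper panel, number of genes, 54 polymerase II genes with a peak in every replicate) and of the exact octamers before covered polymerase II genes (lower panel, 23 matches). The median peak middles are 165, 174 and 179 bp downstream, and 22 of the 23 octamers lie between 250 and 200 bp upstream. Regions that do not reach the gene are left out by the rule.

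Genes with a RefSeq symbol that names their RNA, such as Rnu1a1 or Rn7sk, were also counted apart from the unnamed copies. Symbols of the Snord and n-R5s forms were left out of this count. The 14 counted genes of the polymerase II families were all covered in every replicate, at percentiles from 90.4 upwards: Rnu1a1, Rnu1b1, Rnu1b2, Rnu1b6, Rnu2-10, Rnu3a, Rnu3b1, Rnu3b2, Rnu3b3, Rnu3b4, Rnu5g, Rnu7, Rnu11 and Rnu12. Snord118 and Snord13, the U8 and U13 genes outside the 14, were also covered in every replicate. Their lowest percentiles were 97.9 and 21.2. Of 8 counted genes in the polymerase III families 5 were covered and 2 of them in every replicate. These were the 7SL genes Rn7s1, with scores of 120, 71.0 and 75.9, and Rn7s2, with 146, 71.8 and 75.3, or percentiles between 40.1 and 76.8. AC156953.1, a 7SL copy without a RefSeq symbol, had peaks in replicates 1 and 3 at 67.6 and 73.9. Rny3, a Y RNA gene, had peaks in replicates 1 and 3 at percentiles of 80.9 and 83.3. Rn7sk, whose RNA holds the elongation factor P-TEFb inactive, had peaks in replicates 1 and 3 at 55.4 and 27.8. Rpph1, the RNA of RNase P, had a peak in replicate 3 alone at 2.35. Rny1, Rmrp and Rnu6 were not covered, and the nearest regions were 116, 16165 and 7142 bp away. The telomerase RNA gene Terc, which is read by polymerase II and is outside those families, was not covered, with its nearest region at 4141 bp. Rn5s, a 5S rRNA gene that the annotation gives without a family name and that is outside the count of 8, was not covered either, at 6062 bp. The 5S genes n-R5s114 and n-R5s131, also outside the 8, each had a peak in replicate 1 alone, at the 24.1 percentile.

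Of the 30 covered miRNA genes, 11 had a peak in every replicate, and the strongest were annotated copies of mir-689 and mir-2134. mmu-mir-689-2 on chromosome 16, from 11144218 to 11144274 within Zc3h7a on the other strand, scored 2018, 887 and 3152, at percentiles of 99.8, 99.3 and 100. mmu-mir-2134-4 on chromosome 9 scored 1463, 681 and 2423, and its copy on chromosome 13 scored 762, 364 and 1161. The unnamed AC113316.1, within Cdk8, scored 756, 312 and 930, and mmu-mir-2134-1 on chromosome 1 scored 612, 265 and 883. These 5 were at the 90.8 percentile or above in each list. mmu-mir-2134-2 followed at 86.3, 70.9 and 97.2. Of the miRNA regions 8 of 30 were mostly multi-copy, among them mmu-mir-689-2 (55.3% of its 50-base sequences repeated) and both copies of mmu-mir-2134-4 (53.2% and 53.8%).

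Of 37 miRNA genes known from neural or stem cells and listed for this comparison, 2 were covered, beside 30 of 1577 (1.90%) among all miRNA genes: Mirlet7i, in replicates 1 and 3 at percentiles of 43.7 and 0.570, and Mir124a-3, in replicate 1 at 69.6 and over 17.2% of the gene. A region lay within 10000 bp of 21 of the 37 (56.8%), compared with 35.4% of all 1577 miRNA genes, and several of the 21 share a cluster. Mir302b, Mir302c, Mir302a, Mir302d and Mir367, a cluster of pluripotent cells, lay 305 to 810 bp from 1 region in every replicate, at percentiles of 89.4, 55.1 and 90.9. Mir219-2, a miRNA of the nervous system, lay 431 bp from a region at 84.8, 69.4 and 91.9. For the other 13 uncovered genes near a region, no nearest region had a peak in every replicate. Mir290 to Mir295, 7 genes, shared 1 region in replicate 1 at 30.9, Mirlet7d and Mirlet7a-1 shared 1 in replicate 3 at 16.9, and Mir92-2 and Mir19b-2 shared 1 in replicate 3 at 81.2. Mir9-2 had its region in replicates 1 and 3 at 41.3 and 25.8, and Mir219-1 in replicate 1 at 20.8. Mir135b, within Lemd1 and outside that list, was covered over 14.4% of its length by a region at 87.9, 58.2 and 91.2. Mature sequences in RefSeq (GRCm38.p6) were matched for 8 of the 13 distinct names among covered named miRNAs, and their 12 mature RNAs had 12 different seeds. Those of let-7i, miR-135b and miR-449c are printed 5′ to 3′ with the seed, bases 2 to 8, in capitals, as examples whose regions hold no repeated 50-base sequence.
mmu-let-7i-5p: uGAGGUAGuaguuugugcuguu
mmu-miR-135b-3p: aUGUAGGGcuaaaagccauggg
mmu-miR-449c-5p: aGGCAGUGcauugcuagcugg
Mir449c, the last of these, was near the threshold, with a score of 51 in replicate 1 alone.

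SNORD116, a tandem array of box C/D snoRNAs in the imprinted Prader-Willi region, differed from the clusters above. On chromosome 7 from 66939001 to 67037524, 9 of 17 small RNA genes were covered, 9 of the 27 SNORD116 genes in all (33.3%, 18.6 to 52.2). Between them lay 12 further regions, and 20 lay between those of the U1 cluster on chromosome 3. The windows beside these genes, many of which fall in the same array, were overlapped in 22.2% of cases. Peaks came from replicates 1 (8 genes) and 3 (8 genes), and replicate 2 had none. Their percentiles ran up to 60.7 in replicate 1 and lay between 12.3 and 84.4 in replicate 3, and all 9 regions were mostly multi-copy. In 7 of the 9 the region covered 10.6% of the gene or less. The neighbouring array of SNORD115 had 1 of 137 genes covered, in replicate 3.

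Other snoRNAs were covered in small numbers, namely 4 of 176 further C/D genes, 2 of 420 further H/ACA genes, 2 of 612 SNORA17 genes, 1 of 22 SNORD113 genes and 1 of 43 Cajal body RNA genes. SNORD74, within Gas5, was the only one with a peak in every replicate, at percentiles of 76.9, 48.7 and 91.8. SNORD27, within Snhg1, had a peak in replicate 3 at 58.5. SNORD113, within Rian, had a peak in replicate 1 at 80.1. Snora57 shared its region with AC129217.1 (Mir5136), with peaks in replicates 1 and 3 at 76.9 and 64.0. The 5S genes n-R5s114 and n-R5s131 on chromosome 8 both had a peak of score 57.7 in replicate 1 alone, and every 50-base sequence of both regions was repeated elsewhere.

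When 50% of the gene was required to lie in the region in place of 1 bp, 109 of the 125 regions, 21 of the 33 snoRNA genes and 2 of the 9 SNORD116 genes were kept. Just inside the rule of 1 bp were an SNORD116 gene with 2 bp in the region, another with 7 bp, and Scarna2 with 7 bp. Just outside, AL928935.1 and 2 SNORD116 genes were 1 bp from a region.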

How the data were processed

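SOX3 ChIP-seq libraries of 3 replicates were analysed. Reads had been mapped to mm9 with Bowtie (1.0.0 in the submitters' processing notes), and MACS had been run by the authors on each library against input (p-value limit 1e-05), giving 1 deposited list per replicate. The score the authors deposited for a peak equals 10 times −log10 of its p-value, with no normalization between replicates. The MACS version and the treatment of reads with several matches are not given in the sources used here. No read counts are in the lists, so the depth is unknown.

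Peaks that shared at least 1 bp were merged across the lists and intersected with GENCODE vM1 genes (NCBIM37, the assembly also called mm9). Families were taken from the gene names, and genes without a family name were added to 7SL or RNase P at 70% identity or more. RefSeq symbols (GRCm38.p6) were assigned to 2136 of 5371 genes through the distance to a shared protein-coding neighbour, 40 genes with 2 or more candidate symbols were left without one, and no coordinates of that assembly are printed. Shares have 95% Wilson intervals, which cover counting error only. No test was run, since genes and regions are not replicates. The members, families and gene lists were chosen with earlier results of these data known.

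The genes named were drawn from the 20 regions in every replicate with the highest lowest percentile, the top 5 members of each type, listed structural RNAs and neural or stem cell miRNAs whatever their peaks, and the 3 members nearest each side of the overlap rule. Other members were named after their values were seen. The alternatives were a score of 100 or more, equal numbers of peaks, 50% of the gene inside the region, regions in every replicate only, merging within 300 bp, regions that are not mostly multi-copy, other octamer windows and 1 mismatch, promoters within 1000 bp, and each replicate left out. Shares of genes covered by regions that are not mostly multi-copy were added after the data were seen. The overlap and copy-number procedures were tested on simulated data. The scripts ran in Python 3.11.15 with pysam 0.24.0, numba 0.67.0, numpy 2.4.6, edlib, matplotlib 3.10.9 and scipy 1.17.1. Some items are not reported here.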

Additional observations from a re-analysis of the deposited data

How the results depend on the processing

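Over 21 results and 129 alternatives, 85 values stayed near the reported one and 44 moved further, where near means within its interval for a share, within 1.5 times for the number of regions and within 1 SD of the 3 list medians for a percentile. The shares of covered snRNA, U1, U2, U3, U5 and polymerase II genes stayed within that interval with a score of 100 or more, 50% of the gene, equal numbers of peaks, regions in every replicate only and each replicate left out, the last between 10.4% and 11.8%. Counting only regions that are not mostly multi-copy, an alternative added after seeing the data, took snRNA to 2.46%, snoRNA to 1.29%, rRNA to 0%, U1 to 3.88%, SNORD116 to 0%, polymerase II families to 8.29% and polymerase III families to 0.420%, with U2 at 15.7%, U3 at 14.9% and U5 unchanged. With a score of 100 or more the regions fell from 125 to 80, and the share of covered genes became 0.838% for snoRNA, 1.14% for miRNA, 0% for rRNA, 0.821% for misc_RNA, 0% for U6, 0% for SNORD116 and 0.240% for polymerase III families, while 70% of the regions had a peak in every replicate (25.4% of all regions). With 8096 peaks per list, 83 regions remained, with shares of 0.902%, 1.14% and 0% for snoRNA, miRNA and rRNA, 0% for U6, 3.70% for SNORD116, 0.300% for polymerase III families and 75.9% in every replicate (29.3% of all regions). With regions in every replicate only, snoRNA stood at 0.580%, miRNA at 0.698%, rRNA at 0%, misc_RNA at 0.411%, U6 at 0%, SNORD116 at 0% and polymerase III families at 0.120%. With 50% of the gene inside the region, snoRNA became 1.35% and SNORD116 7.41%, and the median percentile in replicate 1 became 96.6. Without mostly multi-copy regions the median percentile in replicate 2 was 95.9. The octamer was found before 41.2% of covered and 3.13% of uncovered snRNA genes, before 82.4% and 36.9% with 1 mismatch allowed, and before 1.02% of uncovered genes between 250 and 150 bp. With 1 replicate left out, the miRNA share ranged from 1.33% to 1.90%, the rRNA share from 0% to 0.602% and the U6 share from 0% to 0.107%, the zeros without replicate 1. The share of regions with a peak in both remaining replicates, added after seeing the data, ranged from 64.2% to 68.8%, against 19%, 15.5% and 25.6% of all regions without replicates 1, 2 and 3. Apart from the settings that use fewer peaks or regions by construction, the cause of a change was not tested. No paired analysis was possible because the replicates form 1 group. The unknown depth, the recurring score of 3100 and repeated sequence limit comparisons of strength between genes.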

Other observations

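Among the covered genes outside the polymerase II families, 14 had a region with a peak in every replicate. Besides those described above, AL669982.1, an unnamed miRNA gene within Stmn1, a regulator of microtubules, had scores of 328, 88.3 and 200 in replicates 1, 2 and 3. AC115697.1, an unnamed miRNA gene within Fgfr2 on the other strand, had scores of 185, 98.9 and 302. AC073553.3 had scores of 136, 78.7 and 125 and AC154124.1 had 79.7, 61.5 and 275. The first 2 of these regions were almost free of repeated sequence (0% and 2.20% of their 50-base sequences), whereas 66.3% of the sequences of the region on AC073553.3 were repeated. The share of a list that lay on small RNA genes was 0.951% for replicate 2, 0.563% for replicate 1 and 0.279% for replicate 3.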
